A study of Homo sapiens with 16 samples.

Results

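The genes described here are interferon-stimulated genes, a set of 41 genes that carry out or amplify the antiviral answer of a cell to interferon. They were chosen from a list put forward after earlier results of these data had shown BST2 and RSAD2 as the largest falls of metastasizing cells at low oxygen, and 40 of the 41 were measured, out of 19356 protein-coding genes among 34451 genes in all. ISG15 was not analysed here, because no transcript of the deposited table was paired with it. RNA was sequenced from the BJ model, a series of 4 isogenic human foreskin fibroblast stages: primary BJ cells, immortalized cells (BJ hTERT+), transformed cells (BJ hTERT+ SV40+) and metastasizing cells (BJ hTERT+ SV40+ Ras-G12V), each with the earlier constructs still present. All cells were grown in DMEM with 10% fetal bovine serum at 37 °C and 5% CO2 for 6 passages, at atmospheric or at 3% oxygen, on duplicate plates in parallel, which gave 8 groups of 2 libraries (replicates a and b). Each stage is 1 derived cell line and the duplicates are plates of it, so that every p-value below measures the spread between plates. Levels are TPM (a unit of transcript abundance, the length-corrected share of a library), and differences are of log2(TPM + 0.5), which understates the change of genes near 0.

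Type I interferons, such as the fibroblast interferon IFNB1, bind receptors that act through the kinases JAK1 and TYK2, which phosphorylate STAT2 among other proteins. STAT2 and IRF9 are part of the factor ISGF3, which binds interferon-stimulated response elements in front of the genes described here. Many of their products act on viral RNA, on viral entry or release, or on the pathway itself, and fibroblasts are a classical cell type in which this response was worked out.

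The sequences in front of the genes show what many of them share. In the 250 bases before the start of the canonical transcript (GENCODE on GRCh37), the core letters of the response element, 2 copies of GAAA with 2 bases between them on either strand, were found for 24 of the 41 genes (58.5%), against 565 of 19894 protein-coding genes (2.84%). At least 2 matches were found for 13 of the 41 genes and for 49 of all genes. The windows of PARP9 and DTX3L, which point away from each other, overlap. The last 170 bases before the start, written 5′ to 3′ on the strand of the gene with the core letters in capitals, are given for 6 genes with a core, chosen for the results below, and then for GBP2, whose pattern departed from most of the others and whose window holds no core.
IFIT1 (chr10:91152210-91152379, plus strand): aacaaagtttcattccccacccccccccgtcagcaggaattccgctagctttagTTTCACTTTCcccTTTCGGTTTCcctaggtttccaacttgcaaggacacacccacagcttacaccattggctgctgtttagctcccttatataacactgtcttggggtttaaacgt
IFIT2 (chr10:91061633-91061802, plus strand): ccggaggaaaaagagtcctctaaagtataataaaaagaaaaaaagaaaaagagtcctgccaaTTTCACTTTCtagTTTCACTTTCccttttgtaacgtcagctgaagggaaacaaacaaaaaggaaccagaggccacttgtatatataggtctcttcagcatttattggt
RSAD2 (chr2:7017738-7017907, plus strand): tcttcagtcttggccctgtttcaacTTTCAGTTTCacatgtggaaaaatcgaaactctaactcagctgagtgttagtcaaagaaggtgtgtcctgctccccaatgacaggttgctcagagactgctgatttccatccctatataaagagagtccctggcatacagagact
BST2 (chr19:17516440-17516609, minus strand): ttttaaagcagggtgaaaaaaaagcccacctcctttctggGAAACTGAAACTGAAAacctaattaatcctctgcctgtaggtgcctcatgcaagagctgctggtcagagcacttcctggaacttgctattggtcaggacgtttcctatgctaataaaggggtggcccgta
IFI6 (chr1:27998704-27998873, minus strand): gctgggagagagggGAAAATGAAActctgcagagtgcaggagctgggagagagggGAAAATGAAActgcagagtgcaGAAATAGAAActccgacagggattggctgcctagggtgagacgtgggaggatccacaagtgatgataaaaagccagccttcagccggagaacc
IFITM1 (chr11:313870-314039, plus strand): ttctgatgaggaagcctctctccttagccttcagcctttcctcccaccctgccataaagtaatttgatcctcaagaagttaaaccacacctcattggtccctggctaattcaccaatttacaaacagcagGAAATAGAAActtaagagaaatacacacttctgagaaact
GBP2 (chr1:89591798-89591967, minus strand): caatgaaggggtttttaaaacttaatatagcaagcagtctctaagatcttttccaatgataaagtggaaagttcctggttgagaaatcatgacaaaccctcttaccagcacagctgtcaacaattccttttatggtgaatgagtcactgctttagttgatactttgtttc
In IFIT1 and IFIT2 the cores come in pairs, and in BST2 both matches share a GAAA. IFI6 carries 3 matches and RSAD2 1. IFITM1 on chromosome 11 carries 1 match. OAS1, OAS2, MX2, XAF1 and DTX3L also had no match, and their patterns over the groups lay close to the rest of the list (Pearson r 0.978 to 0.985). IFITM2 (0.10) and TRIM22 (0.71) had none either and departed from it. Apart from GBP2, the others without a match lay between. They were IFI35 (0.976), HERC6 (0.975), UBE2L6 (0.958), MX1 (0.948), EIF2AK2 (0.935), CMPK2 (0.925), STAT2 (0.856), OASL (0.826) and SAMD9L (0.768). A match is a description of letters, and no match says nothing about the factors bound.

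**Figure D1:**
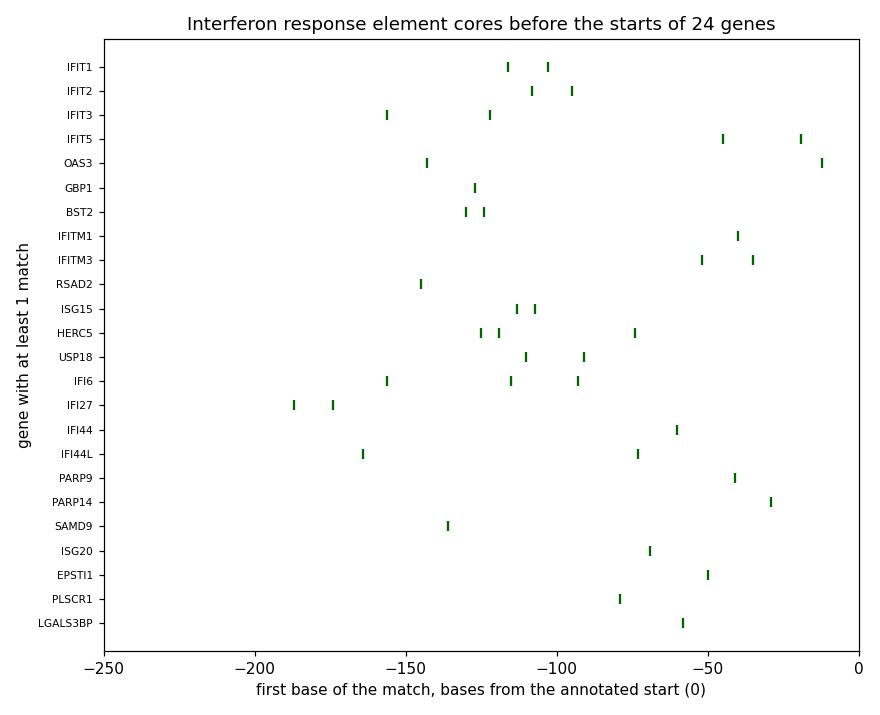
Positions of the core letters of the interferon-stimulated response element in the 250 bases before the start of 24 genes (x axis, bases from the annotated start; y axis, gene; each tick 1 match). Of 39 matches, 34 lie within 150 bases of the start, with a median at -107.

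Before the results, the libraries were checked against their labels. TERT, the catalytic subunit that the hTERT construct adds, was at most 0.543 TPM in the 4 primary libraries and 31.6 to 192.5 TPM in the other 12. HRAS, the gene of the Ras construct, was 119.8 and 99.0 TPM in transformed cells at atmospheric oxygen and 94.6 and 78.1 TPM in the libraries labelled metastasizing at atmospheric oxygen, so it was not higher there. At 3% oxygen HRAS was 49.4 and 61.8 TPM in transformed cells and 143.5 and 772 TPM in the libraries labelled metastasizing. These TPM do not separate mutated from unmutated HRAS transcripts. The authors reported that variants called from the RNA reads bore out the mutations of each stage, which was not repeated here. The name metastasizing below is that of the label. All 9 fibroblast markers were measured, and their sum was 3831 to 20620 TPM. The 8 immune markers summed to 1.44 to 5.10 TPM in any library, with 5 of them under 1 TPM throughout and 1 at 0, and no endothelial or epithelial marker exceeded 2.80 TPM.

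At atmospheric oxygen the summed level of the 40 genes was higher at each later stage. It was 1695 and 1545 TPM in primary cells, 3239 and 3262 TPM in immortalized cells, 11340 and 10860 TPM in transformed cells, and 15120 and 14250 TPM in metastasizing cells. At 3% oxygen it was 826 and 714 TPM in primary cells, 1957 and 1818 TPM in immortalized cells, 1526 and 6798 TPM in transformed cells, and 967 and 996 TPM in metastasizing cells. Every 3% library was below both atmospheric libraries of its stage in this sum, and in transformed cells the 2 libraries at 3% oxygen were far apart. In metastasizing cells the genes made up 1.51% and 1.43% of the library at atmospheric oxygen and 0.0967% and 0.0996% at 3% oxygen. The highest group mean was that of metastasizing cells at atmospheric oxygen for 31 genes, of transformed cells at atmospheric oxygen for 7 genes, and of the 2 earlier stages at atmospheric oxygen for 1 gene each. The lowest was that of primary cells at 3% oxygen for 28 genes, of metastasizing cells at 3% oxygen for 9 genes and of primary cells at atmospheric oxygen for 3 genes. In bulk RNA a lower level per cell and fewer cells that express the genes cannot be told apart.

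**Figure D2:**
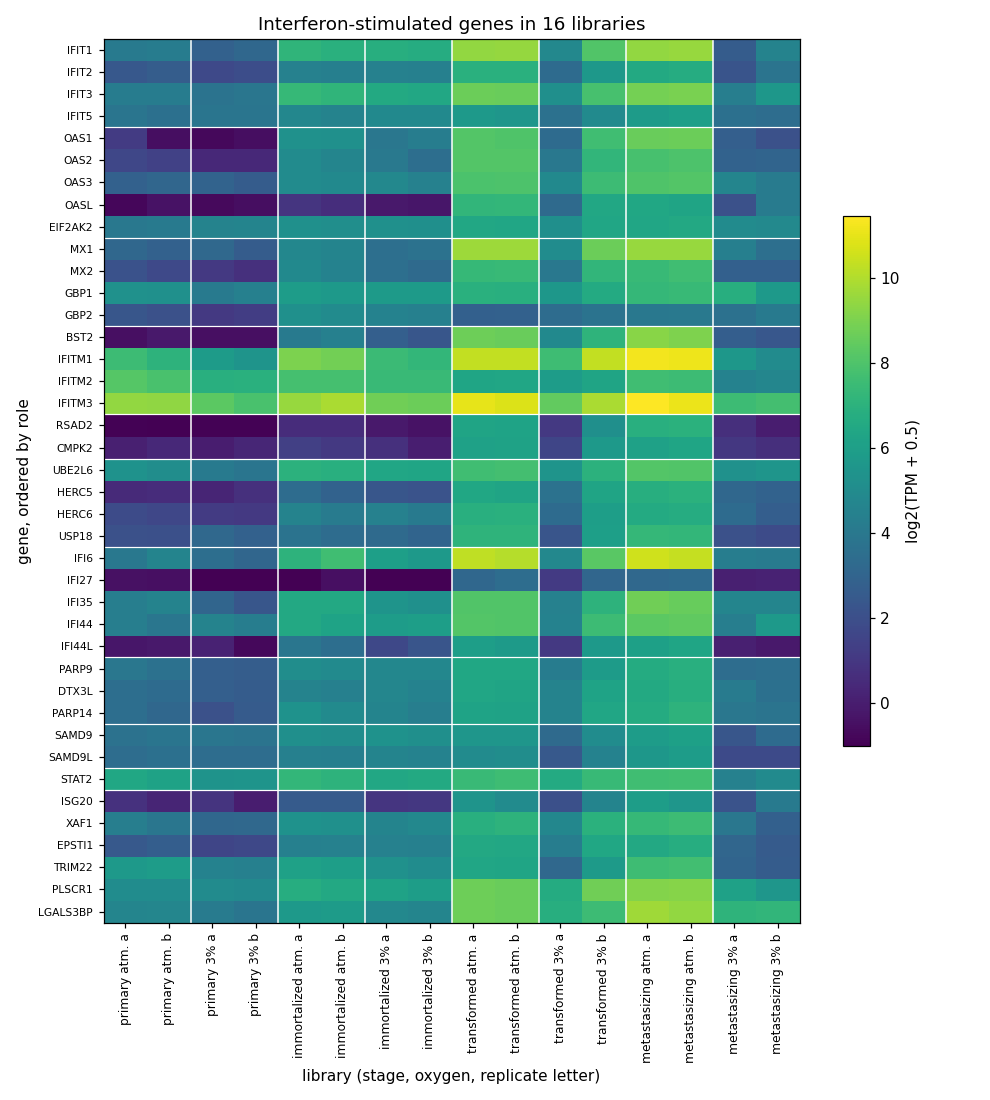
Levels of the 40 genes (rows, ordered by role) in the 16 libraries (columns, by stage, oxygen and replicate letter), as log2(TPM + 0.5) on the colour scale. The 4 atmospheric libraries of transformed and metastasizing cells form the bright blocks, and replicate a of transformed cells at 3% oxygen is darker than replicate b for all 40 genes.

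The duplicates of transformed cells at 3% oxygen stood apart from each other on these genes, which bears on every comparison with that group. All 40 genes were higher in replicate b than in replicate a, 36 of them more than 2-fold, with a median difference of 2.43 (log2; range 0.34 to 4.63). Over all genes of at least 1 TPM in the group, 4.08% differed more than 2-fold between the same libraries, and 2.86% were that much higher in replicate b. Across all expressed genes the rank correlation of these duplicates was 0.978, against 0.991 for transformed cells at atmospheric oxygen. It was lower, 0.963, for the duplicates of metastasizing cells at 3% oxygen. Of the 20 genes with the largest excess in replicate b, 10 were interferon-stimulated genes, as were 20 of the first 50 and 27 of the first 100. IFI44L led them at 4.63, with OAS1 at 4.28, CMPK2 at 4.17 and RSAD2 at 4.16, while LGALS3BP (0.70), IFITM2 (0.38) and GBP2 (0.34) differed least. Genes outside the list with a like excess were led by ODF3B (4.35) and PRR12 (4.29), and IGSF3 (3.96) and ATE1 (3.83) were among them. So were the cytokines CSF3 (4.05), CSF2 (3.48) and IL6 (3.20) and the interferon regulatory factor IRF7 (3.02).

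In the 6 groups other than these and metastasizing cells at 3% oxygen, no gene of the list whose group mean reached 1 TPM differed more than 2-fold between duplicates. In metastasizing cells at 3% oxygen 9 of 37 did, 7 of them higher in replicate b, where 11.0% of all genes did. Set against the mean of transformed cells at atmospheric oxygen, the median of the 40 genes was -2.88 in replicate a and -0.53 in replicate b of transformed cells at 3% oxygen, with 37 and 7 genes more than 2-fold lower. The same median was -3.36 and -3.20 in the metastasizing libraries at 3% oxygen. Replicate a of transformed cells thus lay near the metastasizing libraries at 3% oxygen on these genes, and replicate b near its own stage at atmospheric oxygen. Whether a difference in culture, plate or library handling moved with it was not tested. For results with transformed cells at 3% oxygen, differences that show how far they rest on these libraries are given beside the counts.

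**Figure D3:**
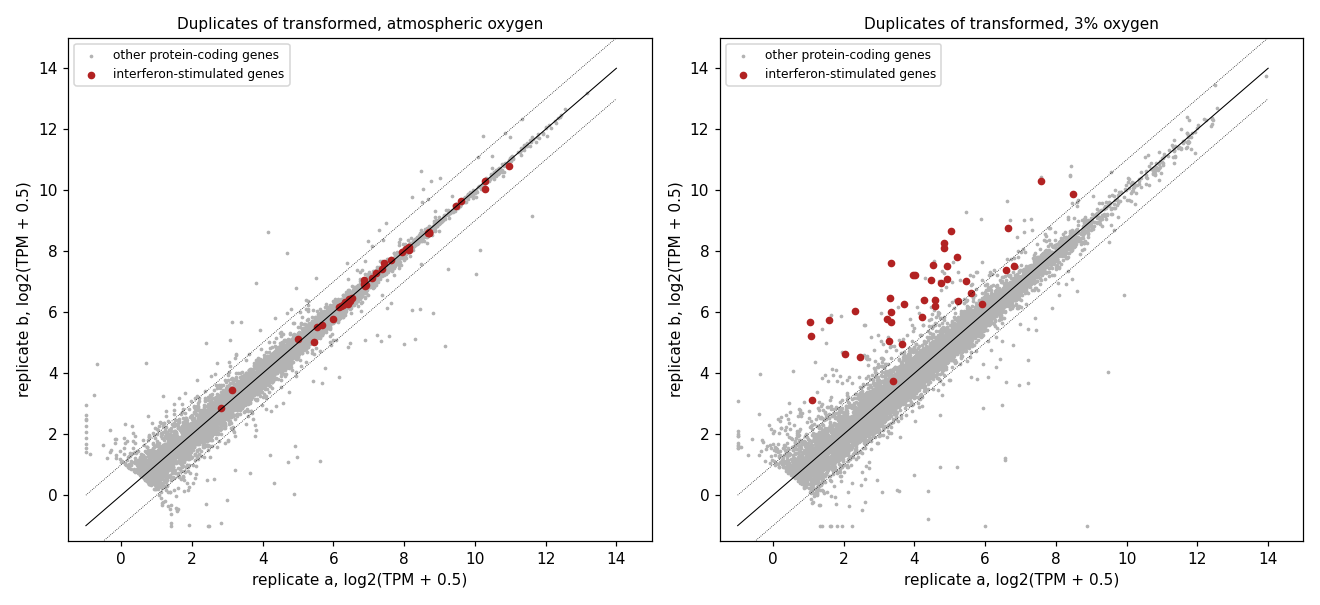
Replicate b (y axis) against replicate a (x axis), log2(TPM + 0.5), for protein-coding genes of at least 1 TPM in transformed cells at atmospheric (left) and 3% oxygen (right); red points are the interferon-stimulated genes, the solid line marks equal levels and the dotted lines a 2-fold difference. At atmospheric oxygen all red points lie between the dotted lines, and at 3% oxygen all 40 lie above it, 36 of them beyond 2-fold.

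In primary cells, most of the genes were at lower levels at 3% oxygen, and 2 passed the test. IFITM2, a membrane protein that blocks virus entry, fell by 1.15 (SE 0.13, adjusted p = 0.000184), and GBP2, a guanylate-binding GTPase, fell by 1.06 (SE 0.18, adjusted p = 0.00214). Of the 40 genes 31 passed the filter of 1 TPM, and 0 of them were called higher and 2 lower (limma, adjusted p under 0.01 and beyond 2-fold), against 2.78% and 2.52% of all genes tested. At an unadjusted p under 0.05, 12 of the 31 were lower and 0 higher, against 39% of all genes in either direction. Their median was -0.93 against 0.08 over all genes. IFITM3 stood at -1.33 (adjusted p = 0.016) and IFI35 at -1.75 (adjusted p = 0.0457), short of the threshold. Both 3% libraries were below both atmospheric libraries for 23 of the 31 genes, against 26.9% of all genes, and above them for EIF2AK2 and USP18. Among the 23, OAS2 passed the filter through the atmospheric group alone, so its mean had to be lower. The fit shares its spread over all 16 libraries. Without the transformed 3% libraries it called more genes, all lower. The share of all genes called in that fit is not given, so the rise is not read as a result of the list. Leaving out atmospheric replicate a or either 3% library lowered the number of called genes. No count is given for such fits, since 1 library has no spread of its own. Of the 9 fibroblast markers PDGFRB fell, by 1.60 (SE 0.15, adjusted p = 7e-05).

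In immortalized cells, only LGALS3BP, a secreted galectin-binding glycoprotein, was called, and it fell by 1.03 (SE 0.20, adjusted p = 0.00335). BST2 stood at -1.71 (adjusted p = 0.0281) and IFITM1 at -1.54 (adjusted p = 0.0846). Thus 0 of 39 genes were higher and 1 lower, against 2.13% and 2.78% of all genes tested, and the median was -0.66 against 0.11. At an unadjusted p under 0.05, 7 were lower and 0 higher, a smaller share than the 39.4% of all genes in either direction. Both 3% libraries lay below both atmospheric libraries for 30 of the 39 genes, against 27.9% of all genes, and above them for IFIT5 and SAMD9L. Among the 30, OASL, RSAD2 and CMPK2 passed the filter through the atmospheric group alone, so their means had to be lower. Without the transformed 3% libraries the fit called more genes, all lower. The share of all genes called in that fit is not given, so the rise is not read as a result of the list. The difference of LGALS3BP ran from -1.15 to -0.94 over 16 alternatives. Its call was lost with any 1 of the 4 immortalized libraries left out, where 1 library has no spread of its own. The immune marker CD14 fell in the same comparison, by 2.30 (SE 0.29, adjusted p = 0.000357), from 2.83 and 3.19 TPM to 0.184 and 0.245 TPM, as did the fibroblast marker DCN, by 1.63 (SE 0.34, adjusted p = 0.00538), and their part was not tested.

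In transformed cells, 6 genes were called lower at 3% oxygen. They were IFI6, which fell by 3.62 (SE 0.77, adjusted p = 0.00456), BST2, by 2.64 (SE 0.50, adjusted p = 0.00249), IFITM3, by 1.70 (SE 0.34, adjusted p = 0.00341), LGALS3BP, by 1.47 (SE 0.20, adjusted p = 0.000346), UBE2L6, by 1.42 (SE 0.35, adjusted p = 0.00985) and IFIT5, by 1.32 (SE 0.30, adjusted p = 0.00689). Of the 40 genes 0 were called higher and 6 lower, against 4.90% and 2.58% of all genes tested, with a median of -1.72 against 0.01. At an unadjusted p under 0.05, 35 were lower and 1 higher, against 45.2% of all genes in either direction. Larger differences did not pass the test, among them RSAD2 at -3.11 (adjusted p = 0.0222), IFIT1 at -3.0 (adjusted p = 0.0158) and MX1 at -2.78 (adjusted p = 0.0212). GBP2 was the exception in direction, at 0.74 (adjusted p = 0.0101). Both 3% libraries were below both atmospheric ones for 36 of the 40 genes, against 35.2% of all genes, those of PARP14, XAF1 and PLSCR1 overlapped, and GBP2 was above. Set against the atmospheric mean, the median of the 40 genes was -2.88 in replicate a at 3% oxygen and -0.53 in replicate b. In these 2 libraries 37 and 7 genes were more than 2-fold lower. Fewer genes were called when either atmospheric library was left out. Of the 9 fibroblast markers FAP was called higher and COL1A1 lower.

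In metastasizing cells, 39 of the 40 genes were more than 2-fold lower at 3% oxygen and 0 were that much higher, against 7.74% and 4.92% of all genes. This contrast supplied the genes that led to the list, so it is described and not tested. The largest differences were those of BST2 (-6.59) and RSAD2 (-6.58), followed by IFI44L (-6.23), OAS1 (-6.22) and IFI6 (-6.19). RSAD2, IFI44L and IFI27 passed the filter through the atmospheric group alone and so had to be lower. The smallest were those of EIF2AK2 (-1.48), GBP1 (-1.10) and GBP2 (-0.16). The median was -3.65 against -0.13 over all genes, and both 3% libraries lay below both atmospheric ones for 39 of the 40 genes, against 37.0% of all genes. Leaving out any 1 of the 4 libraries left 38 or 39 genes beyond 2-fold. Of the 9 fibroblast markers 6 were also more than 2-fold lower (LUM -2.79, DCN -2.53, COL3A1 -2.37, COL1A2 -2.20, COL1A1 -1.76 and PDGFRB -1.38), and their part in the result was not tested.

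**Figure D4:**
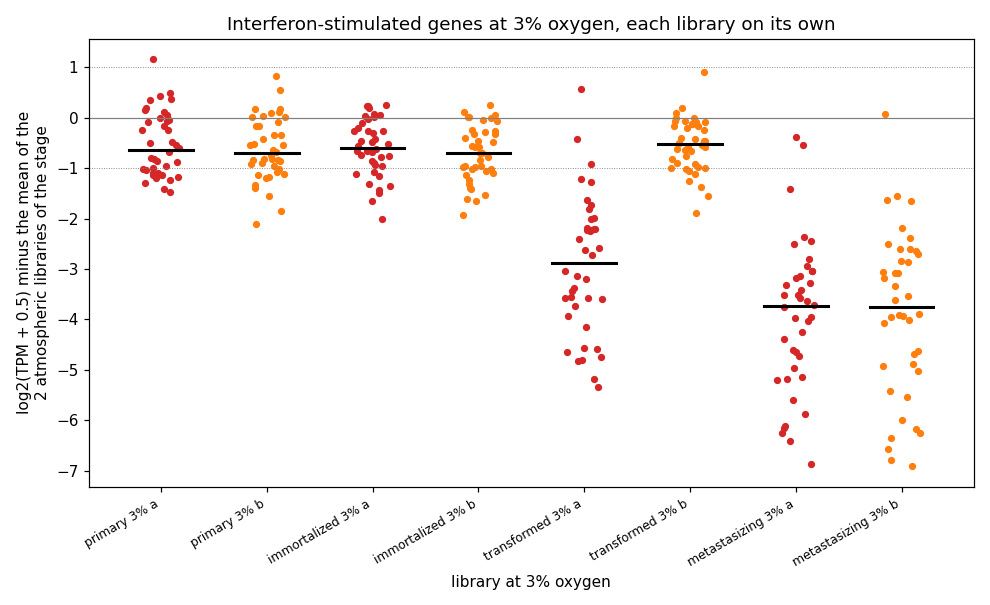
Difference of each 3% library from the mean of the 2 atmospheric libraries of its stage, log2(TPM + 0.5) (y axis), for the 40 genes (points; black bars, medians), with 1 column for each library (red, replicate a; orange, replicate b) and dotted lines at 2-fold. Replicate b of transformed cells lies near the primary and immortalized libraries, and replicate a between them and the metastasizing libraries.

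The oxygen effects themselves were compared between neighbouring stages. Between primary and immortalized cells 0 of 39 genes differed in either direction by limma, against 0.800% higher and 1.06% lower of all genes tested. Only 1 of the 39 had an unadjusted p under 0.05, against 22% of all genes. That gene was IFITM2, whose effect was 0.83 less negative in immortalized cells (SE 0.18, adjusted p = 0.021). Between immortalized and transformed cells 1 gene was called higher and 0 lower, against 6.13% and 5.84% of all genes. GBP2 was that gene, with a difference of 1.40 (SE 0.26, adjusted p = 0.00232). This comparison rests on the transformed duplicates at 3% oxygen that stood apart. Over 19 alternatives the difference of GBP2 ran from 1.22 to 1.57 and that of IFI6 from -3.88 to -0.43. Without both transformed 3% libraries 1 of the 39 genes was called between primary and immortalized cells. Its effect was more negative in immortalized cells, and the share of all genes called in that fit is not given.

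At the step from primary to immortalized cells the genes of the list stood higher at both oxygen levels. At atmospheric oxygen 12 of 39 genes rose and 0 fell, against 5.98% and 6.26% of all genes tested, with a median of 1.67 against -0.09. Of these 39 genes, 8 passed the filter through the immortalized group alone and so had to be higher there (OAS1, OASL, BST2, RSAD2, CMPK2, HERC5, IFI44L and ISG20), among them 3 of the 12 called, OAS1, BST2 and HERC5. OAS1 rose by 4.97 (SE 1.0, adjusted p = 0.00278), BST2 by 4.60 (SE 0.50, adjusted p = 4.61e-05), IFI6 by 3.06 (SE 0.77, adjusted p = 0.00954), IFIT3 by 3.02 (SE 0.63, adjusted p = 0.00328) and GBP2 by 2.93 (SE 0.18, adjusted p = 8.29e-07). The others that rose were OAS2, HERC5, HERC6, PARP14, UBE2L6, EIF2AK2 and LGALS3BP. At 3% oxygen 16 of 36 genes rose and 0 fell, against 4.19% and 5.04% of all genes, with a median of 1.80 against -0.06, and 6 of the 36 passed the filter through the immortalized group alone (OAS1, OAS2, BST2, HERC5, IFI44L and ISG20), so that the direction of OAS1, OAS2 and BST2 among the 16 was fixed. There OAS1 rose by 4.71 (SE 1.0, adjusted p = 0.00481), IFIT1 by 3.74 (SE 0.82, adjusted p = 0.00562), GBP2 by 3.32 (SE 0.18, adjusted p = 4.28e-07) and BST2 by 3.06 (SE 0.50, adjusted p = 0.00107), and the others that rose were PARP9, DTX3L, PARP14, IFIT2, IFIT3, OAS2, GBP1, IFI35, UBE2L6, HERC6, EPSTI1 and STAT2. Without the transformed 3% libraries the fit called more genes at both oxygen levels, all higher. The shares of all genes called in that fit are not given, so the rise is not read as a result of the list. Leaving out any 1 of the 4 libraries compared left far fewer calls, though 1 library then has no spread of its own. CD14 rose at this step at atmospheric oxygen, by 1.96 (SE 0.29, adjusted p = 0.000345), and its part was not tested. The steps and the oxygen comparisons share libraries, so their counts are not independent of each other.

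At the step from immortalized to transformed cells at atmospheric oxygen 21 of the 40 genes rose and 2 fell, against 13.2% and 11.2% of all genes tested. OASL rose by 6.46 (SE 0.82, adjusted p = 5.97e-05), RSAD2 by 5.66 (SE 0.91, adjusted p = 0.000314), CMPK2 by 4.95 (SE 0.92, adjusted p = 0.00087), MX1 by 4.94 (SE 0.81, adjusted p = 0.000353) and BST2 by 4.39 (SE 0.50, adjusted p = 2.66e-05). LGALS3BP, with little spread between duplicates, rose by 2.87 (SE 0.20, adjusted p = 5.9e-07). IFI27, also called, passed the filter through the transformed group alone. The genes that fell were GBP2, by 2.30 (SE 0.18, adjusted p = 1.88e-06), and IFITM2, by 1.44 (SE 0.13, adjusted p = 4.77e-06). The median was 2.03 against 0.22 over all genes. After median-ratio rescaling, which moves the median of all genes to 0.00, fewer genes rose and 2 fell. The share of all genes called after rescaling is not given. Fewer genes were called higher when any 1 of the 4 libraries compared was left out. At this step 6 of the 9 fibroblast markers also fell (DCN, FAP, PDGFRB, LUM, THY1 and COL1A2), and their part in the result was not tested.

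At 3% oxygen the same step had 6 genes higher and 1 lower of 40, against 8.96% and 7.38% of all genes tested, with a median of 0.83 against 0.10. OASL rose by 5.08 (SE 0.82, adjusted p = 0.000545), BST2 by 3.45 (SE 0.50, adjusted p = 0.000263), MX1 by 3.20 (SE 0.81, adjusted p = 0.00774), IFI27 by 3.12 (SE 0.48, adjusted p = 0.000371), HERC5 by 2.73 (SE 0.57, adjusted p = 0.0028) and LGALS3BP by 2.43 (SE 0.20, adjusted p = 3.67e-06). IFITM2 fell by 1.37 (SE 0.13, adjusted p = 1.35e-05). OASL, RSAD2, CMPK2 and IFI27 passed the filter through the transformed group alone, so OASL and IFI27 had to be higher. These values rest on the transformed duplicates that stood apart. Without replicate b the median of the list turned to -0.17. Counts of called genes without 1 of the duplicates are not given, since 1 library has no spread of its own. Of the 9 fibroblast markers 5 fell at this step too (DCN, COL1A1, LUM, THY1 and COL1A2), and their part in the result was not tested.

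The step from transformed to metastasizing cells is described and not tested, for the same reason as above. At atmospheric oxygen 3 of the 40 genes were more than 2-fold higher and 0 lower, against 5.06% and 3.35% of all genes, and the median was 0.34 against 0.06. The 3 were TRIM22 (1.27), IFITM2 (1.24) and GBP2 (1.18). At 3% oxygen 0 genes were more than 2-fold higher and 33 lower, against 3.94% and 6.63% of all genes, with IFITM1 (-3.64) and BST2 (-3.47) the lowest and a median of -1.74 against -0.07. Without replicate b of transformed cells at 3% oxygen 11 genes were more than 2-fold lower and 1 higher, and without replicate a 37 were lower. RSAD2, IFI27 and IFI44L passed the filter through the transformed group alone. Of the 9 fibroblast markers 5 were more than 2-fold lower at this step at 3% oxygen (DCN -2.81, LUM -2.78, COL3A1 -2.02, FAP -1.84 and PDGFRB -1.12), and their part was not tested.

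The IFIT proteins bind viral RNA, and their genes lie side by side on chromosome 10. IFIT1 was 17.0 and 18.3 TPM in primary, 143 and 119 TPM in immortalized, 701 and 709 TPM in transformed and 693 and 753 TPM in metastasizing cells at atmospheric oxygen. Its levels at atmospheric oxygen were higher at each stage up to the transformed one, and no 3% library of any stage reached its atmospheric duplicates. At 3% oxygen IFIT1 was 6.85 and 8.51 TPM in primary, 113 and 104 TPM in immortalized, 27.9 and 273 TPM in transformed and 5.72 and 23.3 TPM in metastasizing cells. The duplicates of metastasizing cells at 3% oxygen also differed here. IFIT2 and IFIT3 ran in parallel, with group means up to 120.0 TPM for IFIT2 and 480.1 TPM for IFIT3, and IFIT5 had the narrowest range, from 11.0 to 61.5 TPM. In immortalized cells IFIT2 (21.1 TPM at atmospheric and 21.3 TPM at 3% oxygen) did not separate by oxygen.

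The oligoadenylate synthetases OAS1, OAS2 and OAS3 make the messenger that switches on RNase L, OASL is a relative without that activity, and EIF2AK2 encodes PKR, which halts translation. OAS1 was 1.74 and 0.185 TPM in primary, 39.1 and 37.4 TPM in immortalized, 278 and 263 TPM in transformed and 394 and 401 TPM in metastasizing cells at atmospheric oxygen. At 3% oxygen OAS1 was 0.103 and 0.199 TPM in primary, 14.6 and 18.6 TPM in immortalized, 9.62 and 196 TPM in transformed and 6.29 and 3.71 TPM in metastasizing cells. OAS1 was under 1 TPM in 3 of the 4 primary libraries. The 2 transformed libraries at 3% oxygen differed by 4.28 on the log2 scale, and its group means ranged over 9.26. OASL was at most 0.261 TPM in primary and 1.41 TPM in immortalized libraries, then 146 and 154 TPM in transformed cells at atmospheric oxygen and 85.6 and 77.5 TPM in metastasizing cells. EIF2AK2 changed least of this group, from 16.3 ± 1.35 TPM (SD, n = 2) in primary cells at atmospheric oxygen to 85.9 ± 4.15 TPM in transformed cells.

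MX1 and MX2 encode dynamin-like GTPases that trap viral particles, and GBP1 and GBP2 encode guanylate-binding proteins known best as targets of interferon gamma. MX1 was 8.54 and 6.79 TPM in primary, 26.9 and 23.7 TPM in immortalized, 786 and 793 TPM in transformed and 742 and 746 TPM in metastasizing cells at atmospheric oxygen. At 3% oxygen MX1 was 8.74 and 5.57 TPM in primary, 11.3 and 12.7 TPM in immortalized, 32.5 and 401 TPM in transformed and 20.5 and 11.2 TPM in metastasizing cells. MX1 did not separate by oxygen in primary cells, where the duplicates overlap, and did so at every later stage. GBP2 was 4.56 and 3.73 TPM in primary, 37.6 and 31.9 TPM in immortalized, 6.54 and 6.77 TPM in transformed and 15.2 and 16.1 TPM in metastasizing cells at atmospheric oxygen. At 3% oxygen GBP2 was 1.59 and 1.87 TPM in primary, 22.2 and 21.3 TPM in immortalized, 10.1 and 12.9 TPM in transformed and 11.9 and 16.4 TPM in metastasizing cells. GBP2 thus peaked in immortalized cells, while most of the list peaked 1 or 2 stages later, and in metastasizing cells its libraries at the 2 oxygen levels overlapped.

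BST2 encodes tetherin, which holds budding virus at the cell surface, and the IFITM genes encode membrane proteins that block virus fusion. BST2 was 0.208 and 0.403 TPM in primary, 16.9 and 21.0 TPM in immortalized, 417 and 391 TPM in transformed and 605 and 524 TPM in metastasizing cells at atmospheric oxygen. At 3% oxygen BST2 was 0.209 and 0.212 TPM in primary, 6.35 and 4.60 TPM in immortalized, 29.9 and 137 TPM in transformed and 6.13 and 4.63 TPM in metastasizing cells. BST2 was under 0.5 TPM in all primary libraries and had the widest range of the list, 9.63 on the log2 scale between group means. IFITM3 was 701 and 680.2 TPM in primary, 741 and 941 TPM in immortalized, 2010.0 and 1775 TPM in transformed and 2807 and 2198 TPM in metastasizing cells at atmospheric oxygen. At 3% oxygen IFITM3 was 321 and 236 TPM in primary, 438 and 402 TPM in immortalized, 358 and 944 TPM in transformed and 184 and 214 TPM in metastasizing cells. IFITM3 was the most abundant gene of the list, with a mean of 934.4 TPM over the 16 libraries. IFITM2 was 287 and 232 TPM in primary, 220.0 and 217 TPM in immortalized, 79.2 and 81.0 TPM in transformed and 198 and 183 TPM in metastasizing cells at atmospheric oxygen. At 3% oxygen IFITM2 was 114 and 118 TPM in primary, 176 and 174 TPM in immortalized, 59.2 and 77.0 TPM in transformed and 22.8 and 26.0 TPM in metastasizing cells. IFITM2 was highest in primary cells and lowest in metastasizing cells at 3% oxygen, an order that no other gene of this group followed. The IFITM genes are closely related neighbours, so how their reads were divided is uncertain.

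RSAD2, which encodes viperin, and CMPK2, a mitochondrial nucleotide kinase, overlap on opposite strands of chromosome 2. RSAD2 was 0.0245 and 0 TPM in primary, 0.989 and 1.02 TPM in immortalized, 76.3 and 75.1 TPM in transformed and 117 and 126 TPM in metastasizing cells at atmospheric oxygen. At 3% oxygen RSAD2 was 0.0281 and 0.0249 TPM in primary, 0.397 and 0.260 TPM in immortalized, 1.59 and 36.9 TPM in transformed and 1.10 and 0.512 TPM in metastasizing cells. RSAD2 was at or near 0 in all primary libraries close to 1 TPM in immortalized cells at atmospheric oxygen and lower there at 3% oxygen. CMPK2 had group means of 0.71, 1.82, 71.1 and 74.2 TPM over the 4 stages at atmospheric oxygen and 0.65, 0.85, 28.1 and 1.32 TPM at 3% oxygen, a similar order. The methods state default kallisto settings and do not name the strand of the reads. Without strand, the overlapping ends of the 2 genes cannot be told apart.

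UBE2L6 is the conjugating enzyme and HERC5 the main ligase for ISG15, a small protein attached to others, and USP18 removes it. UBE2L6 was 40.2 and 33.7 TPM in primary, 127 and 117 TPM in immortalized, 196 and 209 TPM in transformed and 281 and 266 TPM in metastasizing cells at atmospheric oxygen. At 3% oxygen UBE2L6 was 16.4 and 13.7 TPM in primary, 82.0 and 80.6 TPM in immortalized, 43.6 and 129 TPM in transformed and 38.5 and 44.5 TPM in metastasizing cells. HERC5 was 0.883 and 1.02 TPM in primary, 10.1 and 7.12 TPM in immortalized, 84.2 and 76.7 TPM in transformed and 109.9 and 122 TPM in metastasizing cells at atmospheric oxygen. At 3% oxygen HERC5 was 0.725 and 1.14 TPM in primary, 4.46 and 4.06 TPM in immortalized, 12.6 and 76.1 TPM in transformed and 8.41 and 7.09 TPM in metastasizing cells. HERC5 was close to 1 TPM in primary cells, while UBE2L6 was well above that at each stage, and for both the 3% libraries of the 3 later stages lay below the atmospheric ones. In primary cells USP18 was the gene of this group with both 3% libraries above, with 8.80 and 6.92 TPM against 3.79 and 3.55 TPM, and the difference did not pass the test (0.99, adjusted p = 0.394).

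IFI6 encodes a small membrane protein that opposes cell death, and IFI35 encodes a partner of NMI. IFI6 was 15.3 and 23.7 TPM in primary, 132 and 199 TPM in immortalized, 1249 and 1056 TPM in transformed and 1498 and 1300.0 TPM in metastasizing cells at atmospheric oxygen. At 3% oxygen IFI6 was 10.7 and 8.22 TPM in primary, 65.1 and 53.1 TPM in immortalized, 27.9 and 309 TPM in transformed and 19.2 and 17.9 TPM in metastasizing cells. IFI6 was highest in the libraries labelled metastasizing at atmospheric oxygen, and at 3% oxygen it was there close to its level in primary cells. IFI27 was the rarest gene of the list, at most 0.229 TPM in primary and immortalized libraries and at most 10.3 TPM anywhere. IFI44L was under 1 TPM in metastasizing cells at 3% oxygen (0.555 and 0.392 TPM) after 66.4 and 78.5 TPM at atmospheric oxygen.

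**Figure D5:**
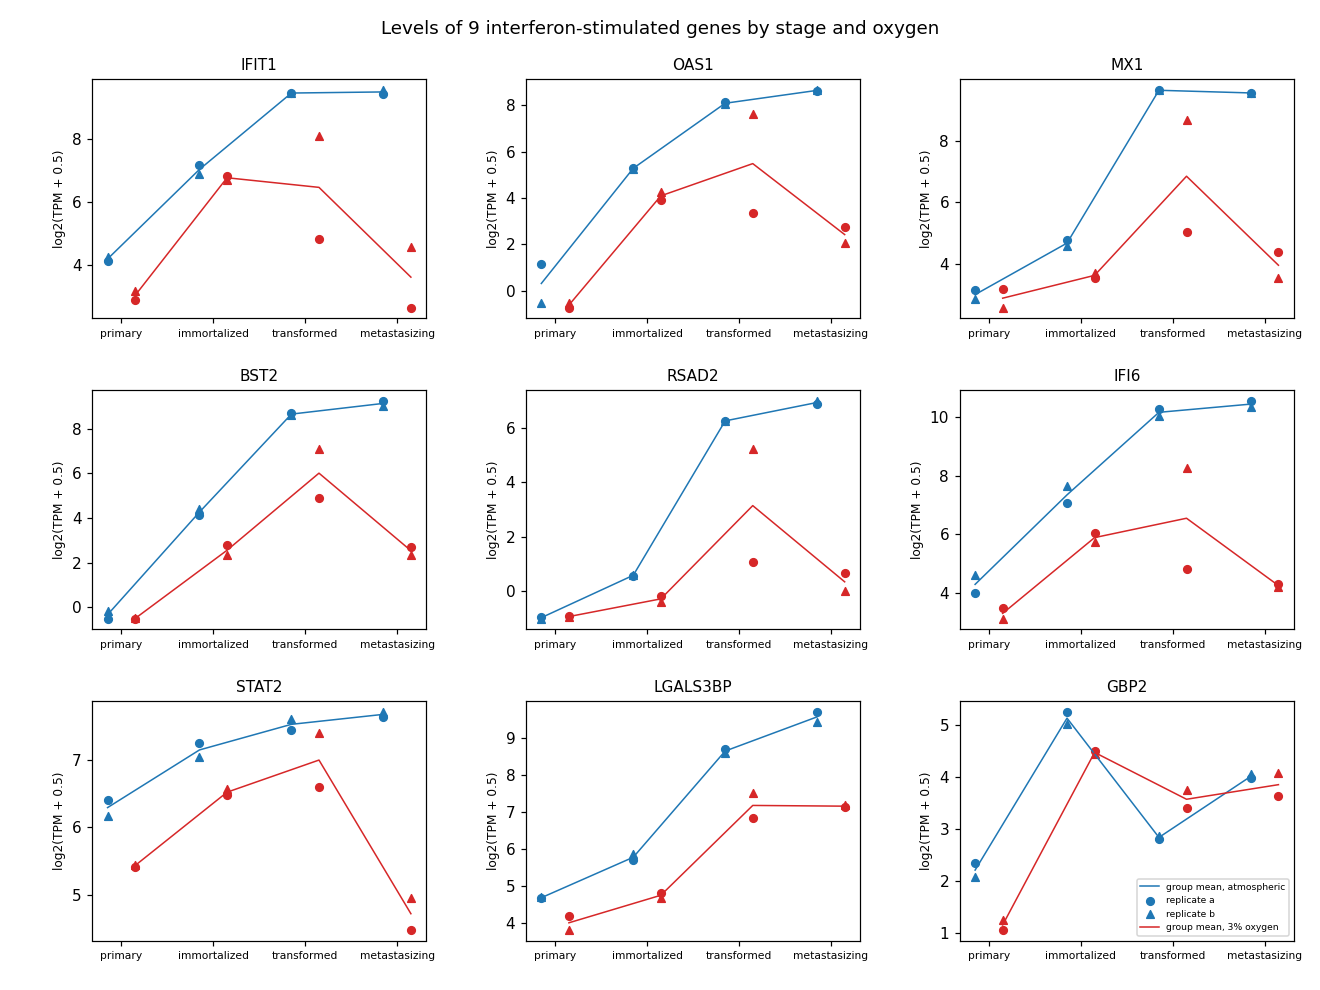
Levels of 9 genes, log2(TPM + 0.5) (y axes, each panel on its own scale), over the 4 stages (x axis) at atmospheric (blue) and 3% oxygen (red), with circles for replicate a, triangles for replicate b and lines through group means. In 8 panels the red points of transformed cells are split and those of metastasizing cells lie below the blue ones, and in the panel of GBP2 the colours meet at the last stage.

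PARP9 and DTX3L form a complex that modifies proteins with ADP-ribose and ubiquitin, and PARP14 is a related transferase. PARP14 was 10.7 and 8.37 TPM in primary, 39.9 and 31.1 TPM in immortalized, 73.3 and 72.6 TPM in transformed and 102 and 131 TPM in metastasizing cells at atmospheric oxygen. At 3% oxygen PARP14 was 3.83 and 5.46 TPM in primary, 24.5 and 19.5 TPM in immortalized, 23.4 and 83.2 TPM in transformed and 14.6 and 13.3 TPM in metastasizing cells. The duplicates of transformed cells at 3% oxygen lay on either side of the atmospheric ones for PARP14. SAMD9 and SAMD9L, adjoining genes on chromosome 7, encode factors that restrict poxviruses. SAMD9 was 12.5 and 13.8 TPM in primary, 36.8 and 33.4 TPM in immortalized, 45.6 and 45.5 TPM in transformed and 57.6 and 67.7 TPM in metastasizing cells at atmospheric oxygen. At 3% oxygen SAMD9 was 14.6 and 13.3 TPM in primary, 39.9 and 36.4 TPM in immortalized, 9.27 and 32.9 TPM in transformed and 4.55 and 9.90 TPM in metastasizing cells. For SAMD9 the oxygen levels overlapped in primary and immortalized cells and separated later. SAMD9L was 10.5 and 11.7 TPM in primary, 21.0 and 20.5 TPM in immortalized, 31.2 and 34.3 TPM in transformed and 47.1 and 58.1 TPM in metastasizing cells at atmospheric oxygen. At 3% oxygen SAMD9L was 10.5 and 10.4 TPM in primary, 24.4 and 22.3 TPM in immortalized, 5.05 and 22.8 TPM in transformed and 2.94 and 2.99 TPM in metastasizing cells. Neither SAMD9 nor SAMD9L was called in any of the comparisons tested, and both were at their lowest in metastasizing cells at 3% oxygen.

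STAT2 is the one subunit of ISGF3 in the list. STAT2 was 84.5 and 71.6 TPM in primary, 151 and 131 TPM in immortalized, 173 and 194 TPM in transformed and 198 and 207 TPM in metastasizing cells at atmospheric oxygen. At 3% oxygen STAT2 was 42.3 and 43.2 TPM in primary, 88.5 and 93.9 TPM in immortalized, 96.5 and 167 TPM in transformed and 21.9 and 30.6 TPM in metastasizing cells. At each stage both 3% libraries lay below both atmospheric ones, and its range over groups, 2.94 on the log2 scale, was the narrowest of those given in full here. STAT2 rose at the step from primary to immortalized cells at 3% oxygen, by 1.08 (SE 0.22, adjusted p = 0.00375).

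The remaining genes encode an RNA exonuclease (ISG20), an inhibitor of XIAP (XAF1), a ubiquitin ligase (TRIM22), a phospholipid scramblase (PLSCR1), EPSTI1 and LGALS3BP. LGALS3BP was 24.9 and 25.4 TPM in primary, 51.1 and 57.5 TPM in immortalized, 413 and 386 TPM in transformed and 828 and 693 TPM in metastasizing cells at atmospheric oxygen. At 3% oxygen LGALS3BP was 17.7 and 13.6 TPM in primary, 27.7 and 25.1 TPM in immortalized, 113 and 183 TPM in transformed and 139 and 146 TPM in metastasizing cells. LGALS3BP was lower at 3% oxygen at each stage with no overlap, and the transformed duplicates differed less on it than on most of the list. TRIM22 was 82.7 and 80.7 TPM in transformed and 190.1 and 206 TPM in metastasizing cells at atmospheric oxygen. PLSCR1 rose at the step to transformed cells at atmospheric oxygen, by 2.04 (SE 0.48, adjusted p = 0.00378), and its mean there was 402 ± 14.8 TPM (SD, n = 2).

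Over the 8 group means, the standardised profiles of the genes were alike, as a description over groups that share stages. The median Pearson r over 780 pairs was 0.89, from -0.38 to 0.997. Against the mean profile, IFITM2 (r = 0.10), GBP2 (0.41) and TRIM22 (0.71) departed most. Among 10947 other protein-coding genes of at least 5 TPM in a group, those with the most similar pattern included BATF2 (0.99), DHX58 (0.98), NMI (0.98), SP110 (0.98), SLC15A3 (0.98), IRF9 (0.98), SHFL (0.98), PRKD2 (0.98) and SAMHD1 (0.97).

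The other genes of the interferon pathway were read from fixed lists of ligands, receptors, signalling factors, sensors, inhibitors and antigen presentation genes. Of 21 ligand genes on the list, 20 were measured, and of these only IFNE and IFNB1 reached a group mean of 1 TPM. IFNE, an interferon of epithelia, rose at 3% oxygen in primary cells, by 1.19 (SE 0.27, adjusted p = 0.00947), and in immortalized cells, by 1.24 (SE 0.27, adjusted p = 0.00712), against the direction of the list. IFNB1, the fibroblast interferon, was 0.905 and 0.123 TPM in transformed and 1.37 and 0.873 TPM in metastasizing cells at atmospheric oxygen, 0.588 TPM in replicate b of transformed cells at 3% oxygen, and listed at 0 in the other 11 libraries. The 5 libraries with IFNB1 above 0 are those with the 5 highest sums of the list, and since depth is unknown, whether it was present below detection elsewhere cannot be told. Its part in the levels of the list was not tested.

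Of 6 receptor genes, 5 fell at the step from immortalized to transformed cells at atmospheric oxygen, where 11.2% of all genes tested fell. They were IFNAR2 (-1.53, adjusted p = 1.03e-05), IFNGR2 (-1.20, adjusted p = 9.75e-05), IFNAR1 (-1.16, adjusted p = 0.00217), IFNGR1 (-1.09, adjusted p = 0.000142) and IL10RB (-1.03, adjusted p = 0.000107). At the step from primary to immortalized cells at atmospheric oxygen IFNAR2 rose (1.31, adjusted p = 7.79e-05), and no receptor was called for oxygen in primary, immortalized or transformed cells.

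Among the kinases and transcription factors, 0 fell at the step to transformed cells at atmospheric oxygen, and IRF9 rose by 1.38 (SE 0.30, adjusted p = 0.00233). IRF7, which drives the later interferon genes, was 5.45 and 47.7 TPM in transformed cells at 3% oxygen, split as the list was. IRF1 rose from primary to immortalized cells at both oxygen levels (1.61, adjusted p = 0.00117, and 1.56, adjusted p = 0.00195).

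Of 14 sensors and adaptors, 2 rose and 1 fell at the step to transformed cells at atmospheric oxygen, shares near those of all genes tested (13.2% and 11.2%). The RNA sensor RIGI rose by 2.44 (SE 0.65, adjusted p = 0.00763) and the DNA sensor CGAS by 1.59 (SE 0.22, adjusted p = 0.000125), while STING1, the adaptor of CGAS, fell by 2.71 (SE 0.14, adjusted p = 8.77e-08). STING1 was 125 and 122 TPM in immortalized cells and 16.7 and 20.2 TPM in transformed cells. TLR3, the endosomal sensor of double-stranded RNA, fell at 3% oxygen in transformed cells, by 2.58 (SE 0.35, adjusted p = 0.000393), and was low in both libraries (0.411 and 1.58 TPM, against 7.70 and 7.77 TPM).

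Among the feedback inhibitors SOCS1 fell at the step to transformed cells at atmospheric oxygen, by 3.20 (SE 0.59, adjusted p = 0.00084), and none of the list was called for oxygen in the stages tested. The antigen presentation gene PSMB9, a subunit of the immunoproteasome, fell at 3% oxygen in primary cells, by 1.43 (SE 0.32, adjusted p = 0.00846), and 4 of 10 genes of that list rose at the step to immortalized cells at atmospheric oxygen, against 5.98% of all genes (ERAP1, PSMB8, PSMB9 and TAPBP). HLA genes are left out, since their transcripts were in part not matched. Of the interferon-induced chemokines, CXCL10 (3.26, adjusted p = 0.000244) and CXCL11 (2.49, adjusted p = 0.00163) rose at the step to immortalized cells at atmospheric oxygen, and CXCL11 fell at 3% oxygen in transformed cells (-2.36, adjusted p = 0.00292). In metastasizing cells at 3% oxygen, as a description, 7 of 10 antigen presentation genes other than HLA genes, 8 of 14 sensors and adaptors and 5 of 10 kinases and transcription factors that passed the filter were more than 2-fold lower, and 0 of 5 receptors, against 7.74% of all genes.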

How the data were processed

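The authors deposited transcript TPM values for 16 libraries (stranded mRNA libraries, HiSeq2500), made with kallisto 0.42.1 on GRCh37 per the labels and methods. Depth is not known from TPM. The methods state default kallisto settings and do not name strand. The 180253 transcripts were summed by gene (GENCODE lifted to GRCh37), with 151453 matched, holding 88.2 to 90.1% of TPM, and 28800 not. The list members, role groups and pathway lists were chosen with earlier results of these data known.

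Differences of log2(TPM + 0.5) were tested with limma 3.58.1 (R 4.3.3) over all 8 groups with an intensity trend, leaving 8 residual degrees of freedom and Benjamini-Hochberg adjustment over all genes tested. Tested genes had a mean of at least 1 TPM in a compared group. Called genes had an adjusted p under 0.01 and a change beyond 2-fold. For single values 2 libraries against 2 cannot go below an exact permutation p of 0.333. Comparisons with metastasizing cells were counted beyond 2-fold without a test. Every member is named. Single libraries are given for the most abundant and the widest-ranging member of each role group, and for IFITM2 and GBP2. These 2 were added after their values were seen. So were the single values of other members and the cytokines and other genes outside the list named beside the duplicates. The nearest patterns come from the 10 highest Pearson r over 8 group means. Some items that these rules cover are not reported here. Alternatives changed the pseudocount (1, 0.1), filter (none, 5 TPM), scaling, groups fitted, weights, threshold (0.05), replicate block and each library left out. The fits without the transformed 3% libraries and with crossed replicates were chosen after seeing the data. The model script was tested on simulated data. Sums, motifs and figures used Python 3.11.15, pandas 2.3.3, numpy 2.4.6 and matplotlib 3.10.9.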

Additional observations from a re-analysis of the deposited data

Results flagged for a closer look

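The effect of 3% oxygen on GBP2 differed between immortalized and transformed cells in a test of the difference itself, by 1.40 on the log2 scale (limma, SE 0.26, adjusted p = 0.00232). GBP2 was 37.6 and 31.9 TPM at atmospheric and 22.2 and 21.3 TPM at 3% oxygen in immortalized cells, and 6.54 and 6.77 TPM at atmospheric and 10.1 and 12.9 TPM at 3% oxygen in transformed cells. Over 19 alternatives the adjusted p was 0.000283 to 0.013, and 4 of them missed the threshold.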

How the results depend on the processing

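Counts of called genes moved with the libraries fitted, the filter, the weights and the threshold. For the genes followed over the alternatives in tested comparisons, no difference changed sign. The small difference of GBP2 in metastasizing cells (-0.16) rests on 3% replicate a, since 3% replicate b lay above both atmospheric libraries. The median of the list from immortalized to transformed cells at 3% oxygen went from 0.83 to -0.17 without transformed replicate b. In primary cells (2 called) the count was 1 with a pseudocount of 1 or a filter of 5 TPM and 0 with only the groups compared. It was 5 at an adjusted p under 0.05, 4 with array weights and 10 without the transformed 3% libraries. In immortalized cells (1) it was 0 with no filter, 7 with only the groups compared, 2 at 0.05, 2 with weights and 8 without the transformed 3% libraries. In transformed cells (6) it was 2 with no filter, 0 with only the groups compared, 22 at 0.05, 19 with weights, and 1 to 36 with 1 library left out. From primary to immortalized cells at atmospheric oxygen (12) it was 3 with no filter and 28 with only the groups compared. It was 24 there at 0.05 and with weights, and 29 without the transformed 3% libraries. At 3% oxygen (16) it was 5, 27 and 28 for no filter, the groups compared and without those libraries. From immortalized to transformed cells at atmospheric oxygen (23) it was 13 with no filter. At 3% oxygen (7) it was 2 with only the groups compared, 13 at 0.05 and 12 with weights. From transformed to metastasizing cells the genes beyond 2-fold were 5 with quantile normalization and 3 to 4 with 1 left out at atmospheric oxygen (3), and 12 to 37 with 1 left out at 3% oxygen (33). Between immortalized and primary effects (0) it was 1 without the transformed 3% libraries and 0 with 1 left out, and between transformed and immortalized effects (1) 3 at 0.05 and with weights, and 0 to 30 with 1 left out. The cause was not tested. Shares of all genes called under these alternatives are not given, so the counts describe the fits and are not read as results of the list. In metastasizing cells 38 or 39 genes were beyond 2-fold under every alternative run. Replicate letters only name plates: same-letter correlations ran from -0.155 to 0.226, and with a replicate block the counts were 2, 1 and 6 for oxygen in primary, immortalized and transformed cells, 11, 15, 22 and 6 for the steps in the order above, and 0 and 1 for the differences of effects. Crossing the letters gave 2 in primary cells and 22 at the atmospheric step to transformed cells. TPM keeps no depth, so precision at low levels is unknown.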
